A study of Mus musculus with 40 samples.

Results

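Genes that mark GABAergic neurons were followed in mouse cortex and cerebellum, namely Gad1, Gad2, Slc32a1, Pvalb, Calb2, Lhx6, Dlx1 and Reln. All probes carrying one of these 8 names on the array were taken, which gave 12 of 55589 probes and 8 of 36362 gene names. Gad1, Gad2, Calb2, Dlx1 and Reln had 1 probe each, Slc32a1 and Pvalb had 2 each, and Lhx6 had 3. Probes were matched by name and not by a measured value, whereas the 8 genes were chosen with earlier results of these data known.

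GABA is the main inhibitory transmitter of the brain. It is made from glutamate by the glutamate decarboxylases GAD67 (Gad1) and GAD65 (Gad2), and the vesicular transporter VGAT (Slc32a1) loads it into synaptic vesicles. In the cortex these genes are used by local interneurons, whose classes are told apart by proteins such as parvalbumin (Pvalb), calretinin (Calb2) and the secreted glycoprotein reelin (Reln), and whose fate is set by homeobox factors such as Dlx1 and Lhx6. In the cerebellum the GABAergic cells are Purkinje cells, Golgi cells and the interneurons of the molecular layer. Parvalbumin is made there by Purkinje cells and molecular layer interneurons, while calretinin and reelin are known products of granule cells, which use glutamate.

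The arrays held 4 mice for each of 10 groups, all on the C57Bl/6 background and grouped by region, genotype, age and diet. Each region had young wild-type mice (2 months) and aged wild-type mice (29 months) on the normal diet, which contained 36 mg of α-tocopherol per kg, and aged wild-type mice on a diet deficient in vitamin E. Aged Ttpa-/- mice were fed either that deficient diet or a supplemented one with 600 mg of α-tocopherol per kg. The product of Ttpa is the transfer protein that keeps α-tocopherol in circulation, and its loss lowers vitamin E in the body. There were no young Ttpa-/- mice and no Ttpa-/- mice on the normal diet.

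Values are log2 signals relative to the 75th percentile of the array, so that 0 is the 75th percentile and a difference of 1 is a doubling. They compare one probe between arrays and say nothing of one gene against another. A probe was called different when it changed more than 1.5-fold and its limma p, adjusted by Benjamini-Hochberg over all probes tested, was below 0.05. The brightest probe stands for a gene in counts. The tissue was taken whole, so that fewer cells of a type and less RNA per cell cannot be told apart. The arrays came on 5 slides of 8, with each group on 1 slide. The normal-diet wild-type groups of cortex shared a slide, whereas those of the cerebellum did not. Replicate arrays correlated across probes at 0.9832 to 0.9975, and 51.4% to 61.4% of probes gave a signal well above background. The brighter Ttpa probe was detected on 4 of 4 cerebellar arrays of each wild-type group, on 0 of 4 in deficient-diet and 1 of 4 in supplemented Ttpa-/- cerebellum, and was too dim in cortex to check the genotype there. The regions carried their labelled markers: 6 of 6 genes of cortical excitatory neurons were higher in cortex at both ages, and 6 of 6 Purkinje cell and 5 of 5 granule cell genes were lower.

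At both ages, 6 of the 8 genes differed between cortex and cerebellum, against 38.4% of the probes tested at 2 months and 33.6% at 29 months. Of them, 1 was higher in cortex, Dlx1, where 19.1% of probes were at 2 months and 15.8% at 29 months. The other 5, Gad1, Slc32a1, Pvalb, Calb2 and Reln, were lower, as were 19.3% and 17.8% of probes. Cortex and cerebellum did not overlap for the same 6 genes, against 58.1% and 56.4% of the probes tested. Gad2 and the brightest Lhx6 probe were the exceptions, although another Lhx6 probe was higher in cortex. Cortex and cerebellum of 1 condition never shared a slide, so that slide and region cannot be told apart in these comparisons. The sole pair on 1 slide, deficient-diet Ttpa-/- cortex and young wild-type cerebellum, also differs in genotype, age and diet, and its values are given with the genes.

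**Figure D1:**
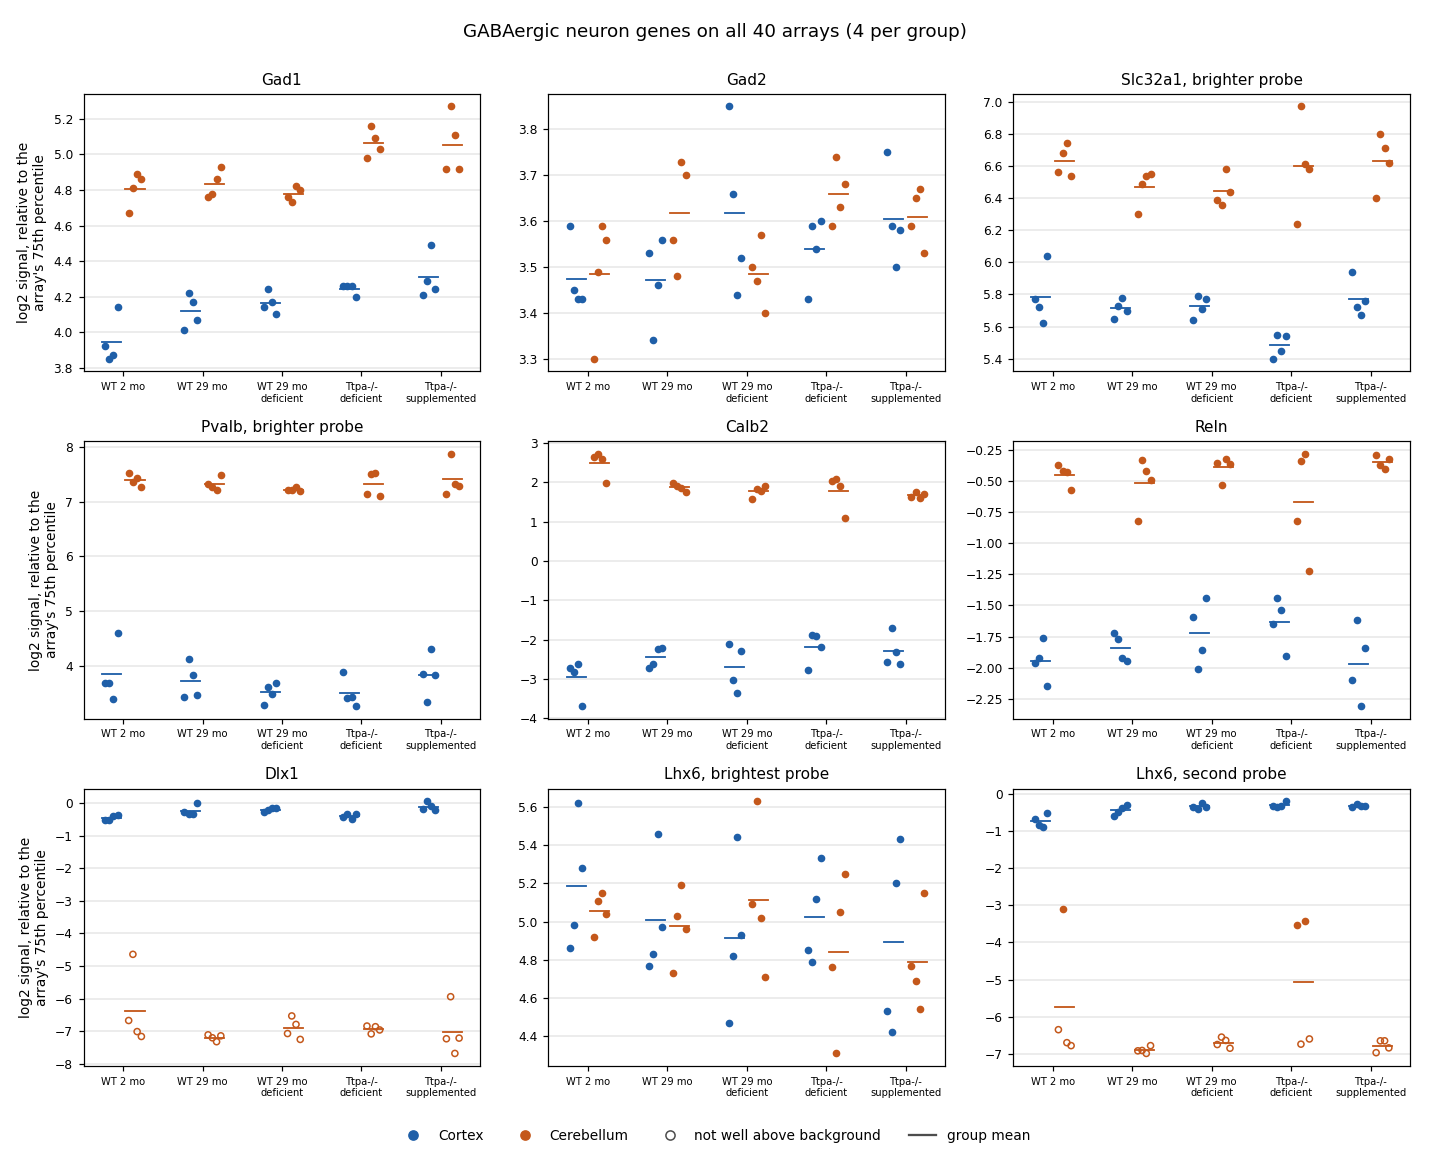
Log2 signal relative to the array's 75th percentile (vertical axis) of 9 member probes on the 40 arrays, by group (horizontal axis), with cortex in blue, cerebellum in orange, open points for arrays not well above background and a bar for the mean of 4 arrays. Calb2 and Pvalb are far lower in cortex, Dlx1 and the second Lhx6 probe are near background in cerebellum, and the brightest Lhx6 probe lies at 4.31 to 5.63 in both regions.

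Gad1, whose enzyme makes most of the GABA of the brain, was lower in cortex by 0.86 on the log2 scale at 2 months. The young cortex read 3.92, 3.85, 3.87 and 4.14, and the young cerebellum 4.67, 4.81, 4.89 and 4.86. All 4 cerebellar arrays lay above all 4 cortical ones, a 1.81-fold difference (95% interval of the log2 change -1.02 to -0.70, adjusted p = 2.01e-11). At 29 months the cortex read 4.01, 4.22, 4.17 and 4.07 and the cerebellum 4.76, 4.78, 4.86 and 4.93, a 1.64-fold difference (-0.87 to -0.56). The gap was seen in all 5 conditions, from -0.86 to -0.62, and none of the 20 cortical arrays reached a cerebellar one. Within 1 slide the change was -0.56 (adjusted p = 1.52e-07), short of the 1.5-fold threshold.

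Gad2, the second decarboxylase, which is anchored to synaptic vesicles, did not follow Gad1. In young mice the cortex read 3.59, 3.45, 3.43 and 3.43, and the cerebellum 3.30, 3.49, 3.59 and 3.56. The groups overlapped, with a log2 change of -0.01 (95% interval -0.17 to 0.15, adjusted p = 0.921). At 29 months the change was -0.15 (-0.31 to 0.02, adjusted p = 0.124), and over the 5 conditions it went from -0.15 to 0.13. Within 1 slide it was 0.05 (adjusted p = 0.557). The intervals at both ages leave out a 1.5-fold difference in either direction. On the 20 arrays of a region, Gad1 and Gad2 moved together in cerebellum (Pearson's r = 0.729) and hardly in cortex (r = 0.115), as a description over arrays that share 5 conditions. With group means removed, r was 0.696 in cerebellum and -0.398 in cortex.

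The promoters of these paralogs are shown because the enzymes are alike and their regional patterns were not. Both sequences are the 250 bases before the RefSeq start of the gene, from GRCm38.p6, on the + strand, at chr2:70561879-70562128 for Gad1 and chr2:22622077-22622326 for Gad2. Capitals mark matches on either strand to a TATA box (TATAAA) or a GC box (GGGCGG).
Gad1: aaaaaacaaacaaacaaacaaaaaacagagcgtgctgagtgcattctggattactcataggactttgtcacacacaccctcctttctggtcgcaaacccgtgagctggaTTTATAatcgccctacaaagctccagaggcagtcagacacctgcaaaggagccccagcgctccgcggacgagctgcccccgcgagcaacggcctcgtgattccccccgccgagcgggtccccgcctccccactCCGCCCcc
Gad2: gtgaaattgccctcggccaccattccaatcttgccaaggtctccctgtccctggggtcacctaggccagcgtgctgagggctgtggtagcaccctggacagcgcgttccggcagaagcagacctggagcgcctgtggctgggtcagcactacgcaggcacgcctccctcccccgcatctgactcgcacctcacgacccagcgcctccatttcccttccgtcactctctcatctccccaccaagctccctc
The Gad1 window held 1 match to each, both on the other strand, and the Gad2 window neither. Of 32851 such windows in the table, 12.4% held TATAAA and 32.7% held GGGCGG. Neither Gad window held a homeodomain core (TAATTA, 4.84% of windows) or a cAMP response element (TGACGTCA, 1.55%). The Gad1 window was 58% G or C and the Gad2 window 64%, beside a median of 52.4% over all windows.

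Slc32a1, the transporter that fills vesicles with GABA, was lower in cortex to about the extent of Gad1. On its brighter probe the young cortex read 5.77, 5.72, 5.62 and 6.04 and the young cerebellum 6.56, 6.68, 6.74 and 6.54. No arrays overlapped, and the log2 change was -0.84 (-1.06 to -0.62, 1.79-fold). At 29 months it was -0.75 (-0.97 to -0.54, 1.69-fold), and within 1 slide -1.14 (adjusted p = 4.4e-11). The second, far dimmer probe went the same way and was called at 2 months (-0.61, adjusted p = 0.0106) but not at 29 months (-0.53), where the fold change fell short. The probes lie on chromosome 2 of mm9, the brighter at 158441324 to 158441383 and the other at 158440166 to 158440225.

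Pvalb, which encodes the calcium buffer parvalbumin, was lower in cortex on both probes. The brighter probe, at chr15:78021549-78021608 of mm9, read 3.69, 3.69, 3.39 and 4.59 in young cortex and 7.53, 7.36, 7.43 and 7.27 in young cerebellum. The cortex was lower by a log2 change of -3.56 (-3.97 to -3.15), or 11.8-fold, at 2 months. Aged cortex read 3.43, 4.13, 3.83 and 3.46 and aged cerebellum 7.32, 7.28, 7.21 and 7.49, a 12.2-fold difference. The second probe gave log2 changes of -3.67 and -3.76, and within 1 slide the probes gave -3.91 and -4.07. Cerebellar arrays were close together and cortical arrays were not: the SD of the brighter probe over 4 young arrays was 0.52 in cortex and 0.11 in cerebellum. The young cortical array that stood out was replicate 4, high on both Pvalb probes (4.59 and 2.65), and the probes followed each other over the 20 cortical arrays (r = 0.926). That array was also the highest of its group for Gad1 and Slc32a1 and the lowest for Calb2 (-3.69), and its summed choroid plexus marker signal was 1.52 against 6.86 to 7.06 on the other 3. The part of the dissected tissue in these values was not tested.

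Calb2, which encodes calretinin, showed the largest fitted regional change among the members above background in both regions. It read -2.71, -2.82, -2.61 and -3.69 in young cortex and 2.63, 2.72, 2.59 and 1.98 in young cerebellum. Cortex was 43.3-fold lower at 2 months (log2 change -5.44, -5.96 to -4.91). At 29 months the cortex read -2.71, -2.63, -2.24 and -2.21, the cerebellum 1.98, 1.90, 1.84 and 1.76, and the difference was 19.9-fold (-4.32, -4.84 to -3.79). The 2 changes differed by 1.12 on the log2 scale (0.38 to 1.86), which did not pass adjustment over all probes (adjusted p = 0.128). Within 1 slide the change was -4.67 (adjusted p = 1.02e-16).

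Reln, which encodes the secreted guidance protein reelin, was the other gene lower in cortex. Young cortex read -1.96, -1.92, -1.76 and -2.15, and young cerebellum -0.37, -0.42, -0.43 and -0.57. The groups lay apart by 2.83-fold at 2 months (log2 change -1.50, -1.82 to -1.18) and by 2.50-fold at 29 months (-1.32, -1.64 to -1.005). Within 1 slide the change was -1.19 (adjusted p = 6.88e-08). Over the 5 conditions it went from -1.63 to -0.97.

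Dlx1, a homeobox factor of interneurons born in the ganglionic eminences, was measured in cortex only. Young cortex read -0.51, -0.52, -0.39 and -0.38, and aged normal-diet cortex -0.26, -0.35, -0.33 and -0.01. Its cerebellar signal of -7.68 to -4.64 was above background on 0 of 20 arrays. Dlx1 was therefore tested through cortex alone, so that it could only come out higher there. A dim group gives a bound only, set by the lowest signal above background on each array. On that basis Dlx1 was at least 19.6-fold higher in cortex at 2 months (adjusted p = 5.42e-17) and at least 28.5-fold at 29 months (adjusted p = 1.1e-18). It was also called within 1 slide (adjusted p = 4.14e-17).

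The promoters of Dlx1 and Reln are printed as those of genes that differed between the regions in opposite directions. They are the 250 bases before the RefSeq start in GRCm38.p6, at chr2:71529195-71529444 on the + strand for Dlx1 and chr5:22344706-22344955 on the - strand for Reln, and capitals again mark TATAAA or GGGCGG.
Dlx1: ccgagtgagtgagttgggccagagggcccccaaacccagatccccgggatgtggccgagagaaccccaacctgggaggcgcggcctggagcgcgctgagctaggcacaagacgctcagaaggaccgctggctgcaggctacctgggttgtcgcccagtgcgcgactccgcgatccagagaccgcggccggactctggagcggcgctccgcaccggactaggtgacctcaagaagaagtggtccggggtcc
Reln: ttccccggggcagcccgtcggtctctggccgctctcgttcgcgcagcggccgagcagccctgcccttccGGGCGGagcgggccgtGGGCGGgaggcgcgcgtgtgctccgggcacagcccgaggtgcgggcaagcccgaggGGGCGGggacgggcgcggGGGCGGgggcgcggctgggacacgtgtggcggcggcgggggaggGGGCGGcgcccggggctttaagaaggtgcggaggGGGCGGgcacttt
The Reln window held 6 GC boxes and was 80% G or C. The Dlx1 window, at 68%, held none of the 4 motifs. An absent match says only that these letters are not in this window.

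Lhx6, a LIM-homeobox factor of interneurons from the medial ganglionic eminence, gave a different answer on each of its probes, and the ends of the 60-base probes are shown because they bear on this. The probes lie on chromosome 2 of mm9, at 35937644 to 35937703 (the brightest), 35937470 to 35937529 (the second in brightness) and 35958379 to 35958438 (the dimmest). Each line gives the last 30 bases as the array lists them, 5′ to 3′, and capitals mark a run of alternating A and C.
Lhx6 brightest: aACACACACACACACACACACACACACACA
Lhx6 second: gagtagaagtgccggcacttaaacccagaa
Lhx6 dimmest: aggagatctactgcaagatggactacttca
The brightest probe ends in 29 bases of an AC dinucleotide repeat, and the others hold no such run in the bases shown. Runs of at least 20 such bases were found in 24 of 55681 probes.

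The brightest Lhx6 probe did not differ between the regions. It read 4.86 to 5.62 in young cortex and 4.92 to 5.15 in young cerebellum, with log2 changes of 0.13 at 2 months (-0.34 to 0.60) and 0.03 at 29 months (-0.44 to 0.50), and of -0.03 within 1 slide. The other 23 probes with an AC run behaved alike: 0 of the 24 were called between regions by limma, with changes of -0.05 to 0.29. Over the 20 arrays of a region, their signal followed the brightest Lhx6 probe with a median r of 0.924 in cortex (0.86 to 0.991) and 0.953 in cerebellum (0.83 to 0.995), while the median over all probes was -0.046 and -0.055. An unnamed probe with a run of equal length followed it at 0.991 and 0.995. These correlations are descriptions over arrays that share slides and conditions, and how much of the signal comes from Lhx6 RNA was not tested.

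The second Lhx6 probe, which has no repeat in its end, gave a pattern like that of Dlx1. It read -0.67, -0.82, -0.88 and -0.50 in young cortex and -0.59, -0.47, -0.38 and -0.29 in aged normal-diet cortex. Of 20 cerebellar arrays, 3 rose above background, 1 of them in young wild-type and 2 in deficient-diet Ttpa-/- mice. At 29 months it was at least 24.9-fold higher in cortex (adjusted p = 1.14e-11), where it was tested through cortex alone, as Dlx1 was. At 2 months the cerebellum read -6.35, -3.10, -6.70 and -6.78, of which the second array alone was above background, and the fitted log2 change was 5.02 (3.88 to 6.16, adjusted p = 2.47e-09). Within 1 slide, against the same cerebellar arrays, it was 5.43 (adjusted p = 4.14e-10). With this probe in place of the brightest, a setting not planned beforehand, 7 of the 8 genes differed between the regions at both ages. The dimmest probe was above background on 0 of 20 cortical and 1 of 20 cerebellar arrays, so that no fold change is given.

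**Figure D2:**
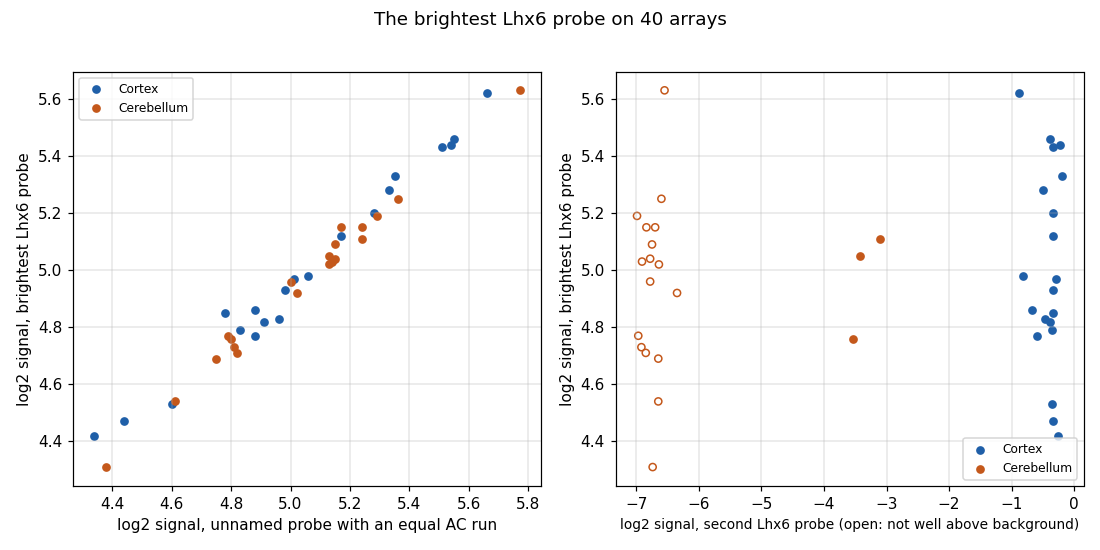
Log2 signal of the brightest Lhx6 probe (vertical axis) on the 40 arrays, against an unnamed probe with an AC run of equal length (left) and against the second Lhx6 probe (right), with cortex in blue and cerebellum in orange. The repeat probe tracks the brightest Lhx6 probe in both regions (r = 0.991 and 0.995), whereas the second Lhx6 probe splits by region.

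**Figure D3:**
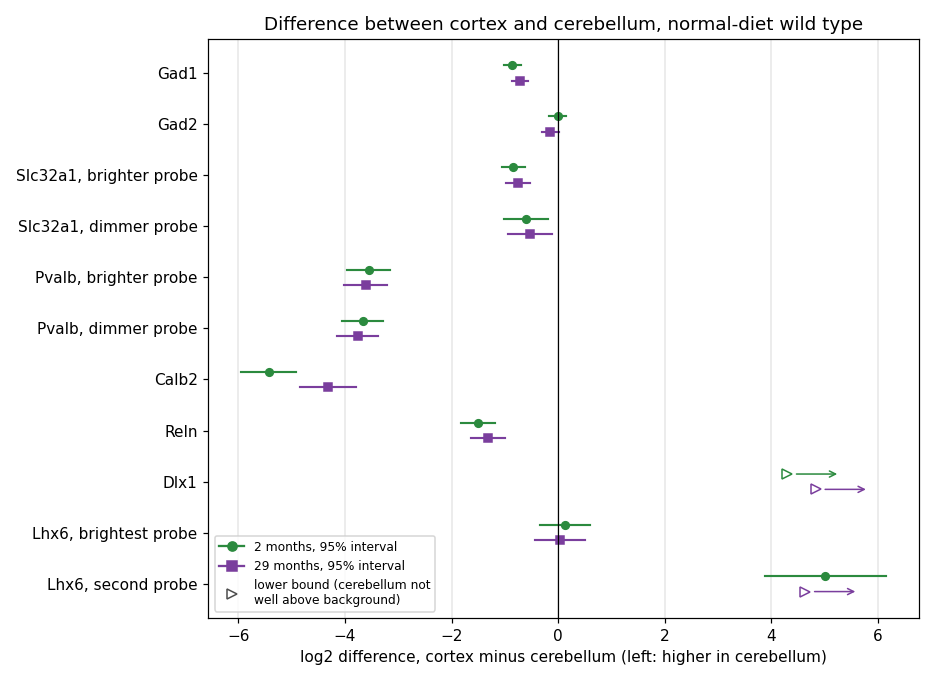
Log2 change of cortex against cerebellum in normal-diet wild-type mice (horizontal axis) for the member probes, with 95% intervals, at 2 months (circles) and 29 months (squares); open triangles with arrows are lower bounds. Pvalb and Calb2 lie furthest to the side of the cerebellum, Gad2 and the brightest Lhx6 probe cross 0, and Dlx1 lies at or beyond its bounds on the cortical side.

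Genes that act with the members were read from 6 lists, by the brightest probe of each gene, in the same regional comparisons. Of 12 other transcription factors of GABAergic neurons tested at 2 months, 9 were higher and 2 lower in cortex, and of 11 at 29 months, 8 and 2. At 2 months 4 of these genes, and at 29 months 3, were absent from cerebellum. Such a gene was tested only because all 4 cortical arrays read it, so that it could only come out higher in cortex. Of all probes, 19.1% were higher and 19.3% lower at 2 months, and 15.8% and 17.8% at 29 months. The median log2 change was 2.50 at 2 months and 2.39 at 29 months, or 1.86 and 2.04 with genes absent from cerebellum set at their bounds, beside 0.02 and -0.01 over all probes tested. The Dlx1 neighbour Dlx2 was at least 21.3-fold higher in cortex at 2 months and at least 28.9-fold at 29 months. Dlx6os1, a non-coding transcript of the other Dlx pair, was at least 15.8-fold and 18.8-fold higher. Dlx5 was at least 5.43-fold higher at 2 months and 3.79 higher on the log2 scale at 29 months, where 1 of 4 cerebellar arrays was above background. Dlx6 was at least 4.11-fold higher at 29 months and Sp9 at least 2.52-fold at 2 months. Npas1 was higher by 6.24 and 4.76 on the log2 scale, with 1 and 3 of 4 cerebellar arrays above background. Without young cerebellar replicates 1 and 2, which are described with the changes by age, it was 5.22 at 2 months. The exceptions were Prox1 (-1.75 and -1.49) and Maf (-1.05 and -0.99), both lower in cortex.

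Genes of interneuron subtypes showed the same lean towards cortex. Of 18 tested, 15 were higher and 2 lower at 2 months, and 14 and 3 at 29 months. Median log2 changes were 3.97 (3.50 with 1 gene at its bound) and 2.29. That gene, Htr3a, was absent from cerebellum at both ages and was tested through cortex alone. Lamp5, a marker of neurogliaform cells listed on the array as 6330527O06Rik, was higher by 8.44 at 2 months, where 1 of 4 cerebellar arrays was above background, and by 6.34 at 29 months. The peptide gene Tac2 (5.94 and 5.31) and the binding protein gene Crhbp (5.85 and 4.59) were higher too. Vip (6.18 and 4.25) and Sst (5.32 and 2.96), which define main classes of cortical interneurons, were among the 5 largest at 2 months, and Cort (5.07) and Htr3a (at least 14.2-fold) at 29 months. At 2 months, 2 of 4 cerebellar arrays were above background for Vip, Tac2 and Crhbp. The 2-month values rest in part on young cerebellar replicates 1 and 2, where Sst read -2.89 and -2.42 against 2.03 and 2.56 on replicates 3 and 4. Without these 2 arrays, a choice made after the data were seen, the changes at 2 months were 2.84 for Sst, 3.55 for Vip, 3.74 for Crhbp, 4.83 for Tac2 and 7.41 for Lamp5. The count was then 14 higher and 2 lower, Pnoc no longer being called, and the median 2.06. Calb1, a calcium buffer that Purkinje cells make in quantity, was lower in cortex (-3.25 and -3.04), as was the fast potassium channel gene Kcnc1 (-2.30 and -1.93), and Nos1 was lower at 29 months (-0.70).

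The other lists were split between the regions. Of 8 perineuronal net genes, 4 were higher and 2 lower in cortex at both ages, with medians of 0.82 and 0.39. For the smaller lists that follow, counts such as 1 of 4 or 1 of 6 are near the shares of all probes given above. Ncan (2.97 and 2.86), Hapln1 (1.74 and 1.26), Tnr (1.55 and 1.38) and Bcan (1.06 and 0.69) were higher, while the link protein gene Hapln4 was lower (-0.68 and -0.64). Of 6 genes of GABA uptake and breakdown, 1 was higher and 2 lower at 2 months and 0 and 2 at 29 months. Slc6a12 (-2.04 and -1.96) and the glutamine carrier Slc38a1 (-1.26 and -1.26) were lower, and Slc6a11 was higher at 2 months (1.14). That call rests on young cerebellar replicates 1 and 2, and without them the change was 0.35 (adjusted p = 0.54). In the reelin pathway 3 of 7 genes at 2 months and 2 of 7 at 29 months were lower in cortex, as Reln was: the receptor gene Vldlr (-0.90 and -0.79), the kinase gene Fyn (-0.83 and -0.61) and, at 2 months, Crkl (-0.78). Of 4 genes of the inhibitory postsynapse and chloride transport, 1 was lower, the chloride importer gene Slc12a2 (-0.87 and -0.75).

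Markers of other cells also differed between the regions. Of 6 microglial genes, 5 were higher in cortex at 2 months and 3 at 29 months, 1 of the others being read by a probe with an AC run (Itgam). Striatal genes were higher for 5 of 8 at 2 months and for 4 of 8 at 29 months, where 2 were lower. Choroid plexus genes had 0 of 6 calls by limma at 2 months and 4 of 6 at 29 months, all higher in cortex, with a median of 2.80 and Ttr at 8.87. Red blood cell genes were lower in cortex for 2 of 2 at 2 months and 3 of 3 at 29 months. The part of these cells in the regional values was not tested. Of the cortical excitatory genes, Emx1 and Fezf2 were above background on 0 of 20 cerebellar arrays, while Neurod6, Tbr1, Cux2 and Slc17a7 were above it on 20 of 20. Oligodendrocyte and endothelial genes had 0 calls by limma at both ages.

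No member gene was called with age, genotype or diet. By limma, 0 of 8 genes were called in the 6 cortical comparisons and 0 of 7 in the 6 cerebellar ones, where Dlx1 could not be tested. The share of all probes called was 2.09% for aging in cortex, 4.75% for deficient-diet Ttpa-/- against normal-diet wild type, 0.223% for the deficient diet in wild type, 0.0920% for supplemented Ttpa-/- against normal-diet wild type, 3.31% for the deficient against the supplemented diet in Ttpa-/- mice and 3.07% for Ttpa-/- against wild type on the deficient diet. In the cerebellum, in the same order, it was 5.03%, 4.46%, 1.28%, 4.91%, 0.343% and 4.94%. A count of 0 among 8 genes is near these shares and sets the members apart from other genes in no comparison. Calb2 changed by -0.61 with age in cerebellum and by 0.51 in cortex, neither of them called.

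Fewer demands on the test gave few genes more. In cortex, 1 gene had groups that did not overlap with age, against 14.0% of probes, and 1 had an unadjusted p under 0.05, against 14.9%. For deficient-diet Ttpa-/- against normal-diet wild type the counts were 1 (23.4% of probes) and 1 (32.8%), and for supplemented Ttpa-/- against normal-diet wild type 0 (6.87%) and 1 (8.51%). For the deficient diet in wild type 0 genes had an unadjusted p under 0.05, against 15.6%. For the deficient against the supplemented diet in Ttpa-/- mice they were 2 (19.0%) and 2 (28.2%), and for Ttpa-/- against wild type on the deficient diet 2 (17.2%) and 1 (29.0%). In cerebellum, in the order in which the shares called were given, genes without overlap numbered 1 (19.1% of probes), 1 (17.0%), 0 (16.8%), 1 (21.3%), 0 (5.32%) and 2 (13.5%). Those with an unadjusted p under 0.05 numbered 1 (23.0%), 1 (27.5%), 0 (21.0%), 1 (28.5%), 1 (11.6%) and 2 (28.1%). Young and aged cortex shared a slide, as did the wild-type diets and the Ttpa-/- diets in cerebellum, and in the other comparisons slide and group cannot be told apart.

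**Figure D4:**
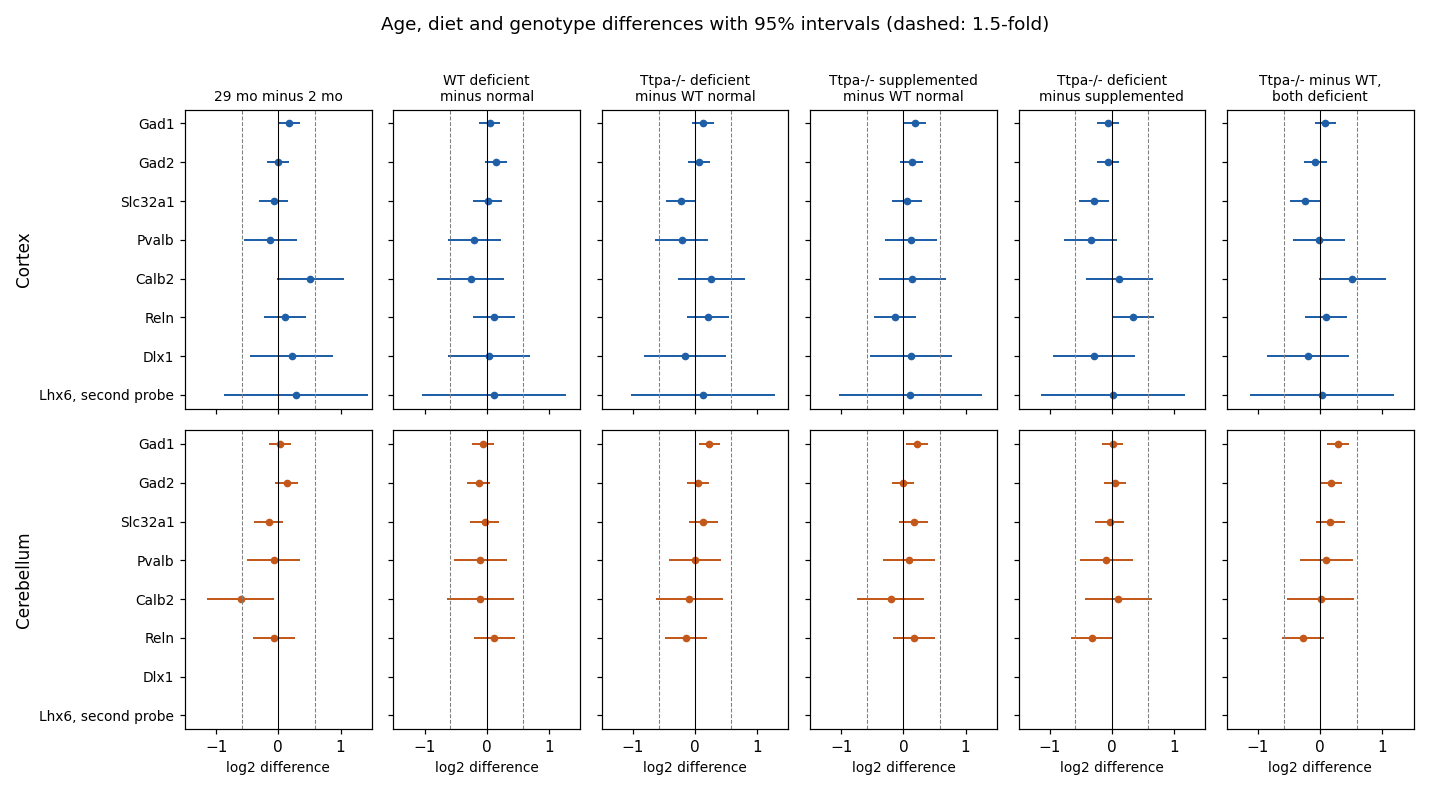
Log2 change (horizontal axis) of 1 probe of each member in 6 comparisons of age, diet and genotype, for cortex and cerebellum. Lines give 95% intervals, and dashed lines a 1.5-fold change. Lhx6 is shown by its second probe, a choice not planned beforehand. The called count is 0 of the member genes in each comparison, and Dlx1 and the second Lhx6 probe were not tested in cerebellum.

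Gad1 was the member closest to a call in Ttpa-/- mice, in the cerebellum. It read 4.76, 4.78, 4.86 and 4.93 in normal-diet wild type, 4.76, 4.73, 4.82 and 4.80 in deficient-diet wild type, 4.98, 5.16, 5.09 and 5.03 in deficient-diet Ttpa-/- and 4.92, 5.27, 5.11 and 4.92 in supplemented Ttpa-/- mice. All 4 deficient-diet Ttpa-/- arrays lay above all 8 aged wild-type arrays. These wild-type arrays shared 1 slide and the Ttpa-/- arrays another, so that slide and genotype cannot be told apart. The log2 change was 0.23 against normal-diet wild type (0.07 to 0.39, adjusted p = 0.0432) and 0.29 against deficient-diet wild type (0.13 to 0.44, adjusted p = 0.0125), both under the 1.5-fold threshold. Of all probes tested, 13.2% and 12.8% passed the adjusted p alone in these comparisons, and the groups did not overlap for 17.0% and 13.5%. The difference against deficient-diet wild type was 0.26 to 0.47 over the settings tried, the highest with median scaling, which also put the median of all probes at 0.17, from -0.01. On the supplemented diet the change against normal-diet wild type was 0.22 (0.06 to 0.38, adjusted p = 0.0501), and between the Ttpa-/- diets it was 0.01.

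In the cortex, Gad1 was lowest in young mice, at a mean of 3.95 ± 0.13 (SD, n = 4). Its means were 4.12 ± 0.10 in aged normal-diet, 4.16 ± 0.06 in deficient-diet wild type, 4.25 ± 0.03 in deficient-diet Ttpa-/- and 4.31 ± 0.13 in supplemented Ttpa-/- mice. Neighbouring groups in this order overlapped in their arrays, and aging gave 0.17 (0.01 to 0.33, adjusted p = 0.276). Gad2 changed by 0.17 between Ttpa-/- and wild-type cerebellum on the deficient diet (0.01 to 0.34, adjusted p = 0.152), where its arrays did not overlap. Markers of striatal projection neurons, which are GABAergic too, also moved between the cortical groups. Their summed log2 signal over 8 genes was 6.11 to 6.46 in young, 5.20 to 5.59 in aged normal-diet, 5.94 to 7.03 in deficient-diet wild type, 5.85 to 6.05 in deficient-diet Ttpa-/- and 5.10 to 6.70 in supplemented Ttpa-/- cortex. With age 3 of the 8 were called lower (Adora2a, Rgs9 and Penk), against 2.09% of all probes called in either direction. The part of striatal genes in the cortical values of the members was not tested.

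Slc32a1 on its brighter probe was lowest in deficient-diet Ttpa-/- cortex, which read 5.40, 5.55, 5.45 and 5.54. The other cortical arrays read 5.62 to 6.04, above all 4. The log2 change was -0.23 against normal-diet wild type (-0.45 to -0.01, adjusted p = 0.127), -0.25 against deficient-diet wild type (adjusted p = 0.121) and -0.29 against supplemented Ttpa-/- mice (adjusted p = 0.0676), none called. The dimmer probe went the other way, by 0.27, 0.12 and 0.35. The probes therefore disagree on the direction in this group. Pvalb in the same group was lower than in supplemented Ttpa-/- cortex by -0.34 on the brighter probe (adjusted p = 0.277) and -0.52 on the other (adjusted p = 0.0588).

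Calb2 had the largest age difference of the members above background in the cerebellum. The young arrays read 2.63, 2.72, 2.59 and 1.98 and the aged normal-diet arrays 1.98, 1.90, 1.84 and 1.76. The aged arrays did not exceed the lowest young array, and the log2 change was -0.61 (-1.13 to -0.09). An exact two-sided permutation test gave p = 0.0286, the smallest that 4 against 4 arrays allow, and the adjusted p was 0.134. Without young replicates 1 and 2, which differed from replicates 3 and 4 in choroid plexus markers, the change was -0.42 (adjusted p = 0.666). In the cortex the change with age was 0.51 (-0.01 to 1.03, adjusted p = 0.348). Between Ttpa-/- and wild-type cortex on the deficient diet it was also 0.51 (-0.01 to 1.03, adjusted p = 0.181).

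Dlx1 in cortex differed by small steps between some of its groups. It was higher in aged than in young wild type by 0.21, and lower in deficient-diet Ttpa-/- mice (-0.42, -0.34, -0.48 and -0.35) than in supplemented Ttpa-/- (-0.19, 0.06, -0.09 and -0.22) by -0.29 and than in deficient-diet wild type (-0.27, -0.21, -0.16 and -0.16) by -0.19. The arrays did not overlap in any of these comparisons, as was so for 14.0%, 19.0% and 17.2% of all probes tested. The adjusted p was 0.846, 0.605 and 0.727. Aged normal-diet wild type (-0.35 to -0.01) overlapped each of the other aged groups. These errors are shared with cerebellar arrays on which Dlx1 was near background (standard error 0.32). In fits of the compared groups alone, the adjusted p was 0.339, 0.108 and 0.177. The second Lhx6 probe changed by 0.28 with age in cortex (adjusted p = 0.894), with the same reservation.

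Reln differed in sign between the regions when the Ttpa-/- diets were compared. On the deficient diet it was higher in cortex by 0.33 (0.01 to 0.65, adjusted p = 0.156) and lower in cerebellum by -0.32 (-0.64 to 0.00, adjusted p = 0.425). The deficient-diet cerebellum was spread over -0.82, -0.34, -0.28 and -1.22, whereas the supplemented one lay between -0.40 and -0.29. Whether the diet difference itself differs between the regions was not tested. For aging, and for deficient-diet Ttpa-/- against normal-diet wild type, the difference between the regions was tested, and 0 of 8 members were called by limma, against 1.46% and 3.38% of all probes, with 2 and 1 at an unadjusted p under 0.05, against 11.9% and 22.6%.

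Of the companion genes, 0 were called by limma with age in cortex, where list medians lay between -0.15 and 0.07, beside -0.03 over all probes. In the cerebellum, 4 of 17 subtype genes were called higher with age, with a median of 0.36, against 3.99% of all probes called higher. The subtype genes were Sst (2.37, called in 5 of 8 fits that left out 1 array), Tac1 (2.39, in 3 of 8), Kcnc2 (2.23, in 3 of 8) and Lamp5 (1.62, in 6 of 8). Lamp5 was above background on 1 of 4 young arrays, replicate 4 (-3.59), and read -6.77 to -5.69 on the others, so that its change is set against a dim group. The young arrays of the other 3 genes fell into pairs. Sst read -2.89 and -2.42 on replicates 1 and 2 and 2.03 and 2.56 on replicates 3 and 4, while the aged arrays read 1.83 to 2.47. Tac1 read -3.64, -2.48, 1.27 and 2.01, and Kcnc2 -5.49, -3.70, -0.14 and 0.49, the first of these not above background. Replicates 3 and 4 thus lay within or near the aged range for all 3. Choroid plexus markers, summed over 6 genes, were also uneven on these arrays, at 7.93, 4.90, 3.20 and 2.48, against 1.73 to 1.99 in aged cerebellum. Among other markers, Cdhr1 (2.78) and Th (0.93) of the olfactory bulb and Drd2 (0.99) and Rgs9 (0.96) of striatum were higher with age. Cdhr1 was above background on 2 of 4 young arrays. Most microglial genes, Gfap and the red blood cell genes Hbb-b1 (2.58) and Alas2 (2.67) were higher too. The part of these tissues and cells in the result was not tested. Without replicates 1 and 2, a choice made after the data were seen, 0 subtype genes were called higher and 1 lower (Erbb4, -0.64), and the median was -0.27.

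**Figure D5:**
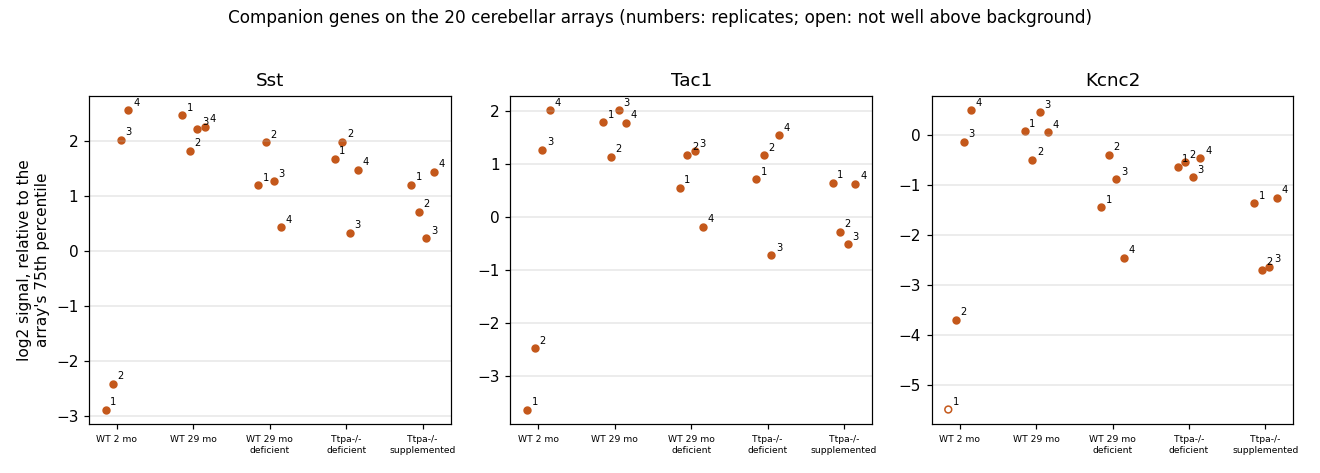
Log2 signal relative to the 75th percentile (vertical axis) of Sst, Tac1 and Kcnc2 on the 20 cerebellar arrays by group (horizontal axis), with replicate numbers beside the points. Young replicates 1 and 2 lie far below replicates 3 and 4 for all 3 genes.

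Comparisons with Ttpa-/- mice and diets called few companions, and most calls were in the cerebellum. In cortex, deficient-diet Ttpa-/- against normal-diet wild type gave 2 of 12 transcription factors, Sp9 (0.75, called in 2 of 8 fits that left out 1 array) and Prox1 (-0.61, called in 5 of 8), against 4.75% of all probes. The striatal genes Drd2 (0.94) and Ppp1r1b (0.69), 2 of 8, were higher in the same comparison, as was the cortical excitatory gene Slc17a7 (0.71). The part of these cells in the change of Sp9 was not tested. In the cerebellum of the same mice, Lamp5 was at least 1.62-fold lower and the net protein gene Ncan was lower (-0.61, called in 5 of 8), 1 of 17 and 1 of 8, against 4.46% of all probes. Some markers of other cells were lower there too. They were Gfap (-0.64) of astrocytes, Mbp (-0.62) and Mag (-0.66) of oligodendrocytes, and Aif1 (-0.59) and C1qa (-0.65) of microglia. The other genes of these lists were not called, and Th, listed as an olfactory bulb marker, was higher (0.66). Car8 was the only Purkinje cell gene called (-2.58). It was also lower in the cortex of these mice (-2.71), where 2 of 4 arrays were above background. The part of these cells in the result was not tested. In supplemented Ttpa-/- cerebellum, 4 of 17 subtype genes were lower, Kcnc2 (-2.01), Crh (-1.92), Lamp5 (-1.58) and Pnoc (-0.81), with a median of -0.81, against 1.57% of all probes called lower. Crh was above background on 2 and Lamp5 on 1 of these 4 arrays, so that both changes run into the background. Of the 4 genes, Crh, Lamp5 and Pnoc were called with each of the 8 arrays left out, and Kcnc2 in 2 of 8 such fits. Of the net genes, 3 of 8 were lower as well: Ncan (-0.68, called in 8 of 8 such fits), Acan (-0.91, in 4 of 8) and Hapln1 (-0.68, in 3 of 8). Slc6a11 was also lower (-1.19, in 2 of 8). Of the markers of other cells, the olfactory bulb gene Cdhr1 (-1.96) and the Purkinje cell gene Car8 (-2.89) were lower in this comparison. Their part in the result was not tested. In wild-type cerebellum on the deficient diet, Crh (-1.80) and Lamp5 (at least 1.91-fold) were lower, 2 of 17, against 1.28% of all probes. Lamp5 was called in 2 of 8 fits that left out 1 array and Crh in 6 of 8. Crh was above background on 1 of 4 deficient-diet arrays, and normal-diet replicate 1 (-1.49) stood above the other 3 (-4.00 to -3.72). Without it the change was -1.21 (adjusted p = 0.0773). These cerebellar comparisons share the aged normal-diet wild-type arrays. In the remaining comparisons of diet and genotype 0 companions were called by limma.

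Some genes followed a member closely across the 20 arrays of a region, as a description over arrays that share groups and slides. In cortex, the closest to the brighter Pvalb probe was Scrt1 (Pearson's r = 0.926, Spearman's rho = 0.863), and the closest to Gad1 was Cyth1 (0.917 and 0.833). Calb2 went with Dlk1 (0.828 and 0.818), Reln with Sdc3 (0.812 and 0.806) and Dlx1 with Gli1 (0.851 and 0.892). In cerebellum, the genes nearest to the brighter Pvalb probe were the Purkinje cell genes Pcp2 (0.918 and 0.844) and Gng13 (0.916 and 0.905), then Phpt1 (0.896 and 0.91). The second Pvalb probe was nearest to Rpl35a (0.906 and 0.899), and the Pvalb probes followed each other less closely there (r = 0.471). Gad1 went with Tom1l2 (0.932 and 0.895), the brighter Slc32a1 probe with Mpdu1 (0.894 and 0.898), Calb2 with Mprip (0.928 and 0.830) and Gad2 with Hpca (0.837 and 0.699). For Reln in cerebellum the closest was Snx11, with an r of 0.899 beside a rho of 0.469.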

How the data were processed

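RNA of each mouse was labelled with Cy3 and hybridized to a 1-colour Agilent array, read with Feature Extraction (10.7.3.1 per the file headers, 10.1.1.1 in the submitters' notes; mm9). The authors deposited the processed signal, an intensity that is background-subtracted and detrended but not normalized between arrays, and its flags. The authors also deposited a table of log2 values, which were the values used here centred on each probe's mean (median absolute difference 0.00085; column medians -0.235 to 0.185). From the intensity, flagged spots (95 to 148 per array) were dropped, repeats averaged, log2 taken and the array's 75th percentile (365 to 925) subtracted. No probe value of a member was saturated.

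Groups were taken from the labels and fitted in limma 3.58.1 (R 4.3.3) over all 40 arrays, a coefficient per group. A probe was tested where all 4 arrays of either compared group read it well above background. Single values were compared by exact permutation. The number of arrays limits precision. The fit was tested on simulated data. The members and lists were chosen with earlier results of these data known. Named companions are the called ones with the largest changes, up to 5 a list, and the genes most correlated with a member. Those named beyond this (genes lower in cortex that were not among the largest, Erbb4, Pnoc in the regional comparison and single markers of other cells) were chosen after their values were seen. Some listed genes are not reported here and stand in no count or median of a list. Alternatives were other scalings (median, quantile), normexp with an offset of 50, the deposited log2 values, no filter, replicate and slide blocks, array weights, separate fits, other thresholds, the methods' t-test and leaving out each array. Promoters are from RefSeq and no entry for Calb2 was used here.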

Additional observations from a re-analysis of the deposited data

Results flagged for a closer look

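In deficient-diet Ttpa-/- cortex, replicate 4 stood apart for Gad1, at 4.20 against 4.26 on the other 3 arrays, and for the second Lhx6 probe, at -0.19 against -0.35 to -0.33. The gap to the nearest array took 0.862 and 0.832 of the group's range, over the 95% critical value of Dixon's test. These were 2 of 100 groups of 4 arrays examined, where chance gives about 1 in 20, and both gaps are small beside the spread of other groups.

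Changes that differed between cortex and cerebellum in the test of that difference were found for 0 members and 2 companion genes. Of all probes, 1.46% were called in this test for aging and 3.38% for deficient-diet Ttpa-/- against normal-diet wild type. So few calls do not set the companions apart from other genes. For Dab1, the intracellular adaptor of reelin receptors, the change with age differed by 0.66 (0.26 in cortex, -0.40 in cerebellum). The Dab1 difference was called in 15 of 16 fits that left out 1 array. For Dlx2, deficient-diet Ttpa-/- against normal-diet wild type differed by -0.61, called in 9 of 16 such fits. The Dlx2 probe was above background on 0 of 20 cerebellar arrays, so that the cerebellar side is no measured change.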

How the results depend on the processing

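The regional counts of 6 member genes stayed between 6 and 7 under every setting tried, 7 where the second Lhx6 probe or the mean of probes stood for Lhx6. The setting with the second Lhx6 probe was not planned beforehand. Of 270 called values under an alternative, 270 kept their call and direction. Some settings could not remove a call: those that only loosened a threshold, and those that left a gene's value as it was. The deposited log2 values were also nearly the values used here. The counts of 0 for age, diet and genotype became 1 for Ttpa-/- against wild-type cortex on the deficient diet with array weights (Calb2, 0.80), and 1 for aging in cerebellum (Calb2, -0.61) with normexp, with the unadjusted methods' t-test and with the unadjusted p. Without a fold threshold they became 1 for Gad1 in cerebellum, in deficient-diet Ttpa-/- against normal-diet (0.23) and against deficient-diet wild type (0.29). With the unadjusted p, the aging difference between regions gave 2, Calb2 (1.12) and Dlx1 (1.04, not above background in cerebellum). The cause was not tested. With each array left out, counts stayed at 6 between regions and at 0 elsewhere. Replicate numbers were not taken as pairs (same-numbered arrays had correlations of -0.446 to 0.664), and the replicate block left the counts at 6 and 6 between the regions and 0 elsewhere. The mean of probes turned Slc32a1 in deficient-diet Ttpa-/- cortex to 0.02 against normal-diet wild type and 0.03 against supplemented Ttpa-/-. Dim cerebellar signal limits Dlx1 and Lhx6 to bounds.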
